A study of Mus musculus with 6 samples.

Results

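The unfolded protein response and ER-associated degradation were described here through 35 genes, chosen by symbol from the 55401 genes of a deposited count table and all found in it (Ero1l and Ero1lb are also called Ero1a and Ero1b). RNA had been sequenced from small-intestinal lamina propria ILC3s, group 3 innate lymphoid cells, of wild type mice (pups, in the protocol text), pretreated with PEox (3 libraries) or with vehicle (3 libraries). PEox is not spelled out in the labels; in ferroptosis research it usually stands for oxidised phosphatidylethanolamine. Dose, exposure time, exposure inside or outside the animal, exact age, strain and pooling of animals are not given in the sources used here, and no label ties a library to an animal of its own. The p-values therefore reflect library-to-library spread alone, possibly of technical origin.

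Proteins that enter the secretory pathway are threaded into the endoplasmic reticulum (ER) through the Sec61 channel, folded there by chaperones and disulfide isomerases, and sent back to the cytosol for destruction when folding fails. The branches of a stress response, led by the sensors IRE1 (Ern1), PERK (Eif2ak3) and ATF6, read the load of unfolded protein and raise the transcription of these factors. Lymphocytes that secrete cytokines use the same machinery, and XBP1, which IRE1 activates by splicing its mRNA, is best known for building the secretory apparatus of plasma cells.

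In the PEox libraries the 35 genes did not move as a block. At an adjusted p under 0.05 (edgeR quasi-likelihood test, Benjamini-Hochberg over all 18253 genes tested), 13 were higher, against a background of 18.3% of all genes tested, and 13 were lower, against 18.8%; 9 did not pass. Scaling by library size alone gave 15 higher and 11 lower, and 61.9% of the calls over all genes were then higher, against 49.3% here. Their median log2 fold change was 0.08, beside 0.00 over all genes tested. The levels of the groups did not overlap for 29 of the 35, against 50.6% of all genes. Most of these genes are well expressed, and among the 10743 genes with a level of at least 5 CPM (counts scaled to library size) in 3 libraries the share called was 60.6%. The genes for the ER membrane sensors Ern1 and Eif2ak3, the chaperone Hyou1, the channel subunit Sec61a1, Sec63, the TRAP subunits Ssr1 and Ssr3, and the degradation ligase with its partner, Syvn1 and Sel1l, were higher. Xbp1, Manf, Creld2, Sdf2l1, Calr, Pdia3, Pdia6, Herpud1, the small channel subunits Sec61b and Sec61g, and Ssr2 and Ssr4 were lower.

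**Figure D1:**
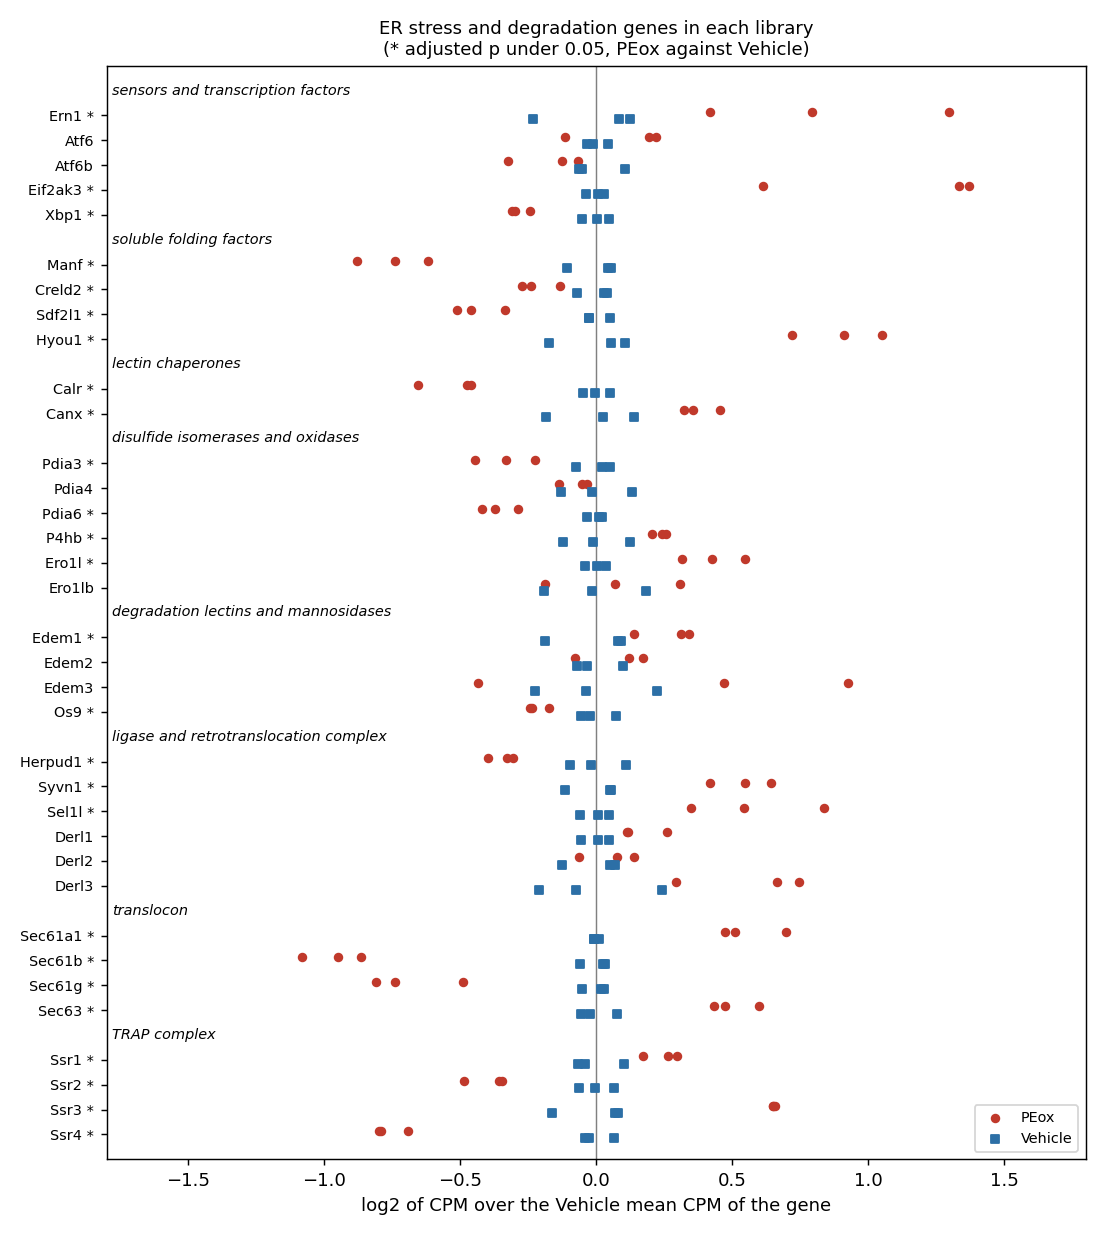
Each row is 1 gene, grouped by role; points give each library's CPM over the gene's Vehicle mean on a log2 axis, PEox as circles and Vehicle as squares, and an asterisk marks an adjusted p under 0.05. Red and blue separate in most rows, to the right for 13 genes called higher and to the left for 13 called lower.

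Total counts were between 56252806 and 57532484 in the PEox libraries and between 59524577 and 66849230 in the Vehicle libraries, and the 35 genes together took 0.708% to 0.758% of the counts in PEox and 0.724% to 0.732% in Vehicle. The protocol text describes sorted EpCAM+ CD45- epithelial cells whereas the cell type label says ILC3s. Summed levels of 8 ILC3 markers were 6680 to 6685 CPM in PEox and 11429 to 11924 CPM in Vehicle. Il22 made up most of that gap, at 2513 CPM in PEox and 6724 CPM in Vehicle. Of the 8, 4 were lower, 1 (Kit) was higher and 3 did not pass. Beside this and the marker counts below, 18.3% of all genes tested were higher and 18.8% lower. The sums of 7 epithelial markers were 73.9 to 74.8 CPM in PEox and 105 to 119 CPM in Vehicle. Of 6 tested, 3 were lower and 0 higher, and Lgals4 leaned the other way without passing (11.8 CPM in PEox, 8.33 CPM in Vehicle). In bulk RNA, fewer cells of a type and less RNA per cell cannot be told apart. Plasma and B cells, which carry a large ER, were represented by 10 markers that summed to 108 to 117 CPM in PEox and 385 to 401 CPM in Vehicle; 7 of 9 tested were lower, 0 were higher, and Tnfrsf17 was at 0 in every library. Goblet and Paneth cell markers, another secretory type, summed to 27.5 to 31.8 CPM in PEox and 25.3 to 30.3 CPM in Vehicle, with 0 of 3 tested called, and Tff3, Clca1, Defa24 and Spink4 were at 0 in every library. Natural killer cell and ILC1, T cell, myeloid and mast cell markers were also lower in sum, though not gene by gene. Called lower were 4 of 5 natural killer cell and ILC1, 4 of 5 T cell, 4 of 8 myeloid and 3 of 6 mast cell markers. Cd4, of the T cell list, was higher (14.8 CPM in PEox, 8.46 CPM in Vehicle; edgeR adjusted p = 0.0363), although its groups overlapped. The rest of these did not pass. The 4 erythroid markers summed to 4078 to 4655 CPM in PEox and 2194 to 2226 CPM in Vehicle, and all 4 were called higher. Stromal markers, 4 in number, summed to 260.1 to 281 CPM in PEox and 126 to 152 CPM in Vehicle, with Col1a1 and Col3a1 higher, Pdgfra and Pecam1 not called and 0 lower. The part of these other cell types in the changes of ER genes was not tested.

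Promoters of this gene set are known for the ER stress response element (ERSE), read by ATF6 and XBP1 together with the factor NF-Y. RefSeq promoter windows (GRCm38.p6, 250 bases before to 50 bases after a start) were held for 29 of the 35 genes (all but Atf6, Manf, Hyou1, Derl1, Sec61a1 and Ssr2). ERSE was searched as CCAAT, 9 bases and CCACG on both strands, and its relative ERSE-II as ATTGG, 1 base and CCACG. ERSE stood in the windows of 7 genes (Calr, Canx, Creld2, Derl3, Ero1lb, Pdia6 and Syvn1), against 0.137% of the 27025 genes with a window, and ERSE-II in that of Herpud1, against 0.0444%. TGACGTGG, the UPRE bound by XBP1, was found in 0 of the 29 and in 0.714% of all genes. The ends of ERSE are common on their own: CCAAT and CCACG each stood in 22 of the 29, against 41.1% and 35.5% of all genes. ERSE-bearing genes had no common direction, since 2 were higher, 3 were lower and 2 did not pass. Of these 8 matches, 6 are printed because they belong to genes that passed the test, in the direction of transcription with 20 flanking bases and the match in capitals.
Canx (chr11:50325780-50325838, minus strand): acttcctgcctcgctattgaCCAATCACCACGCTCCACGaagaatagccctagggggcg
Syvn1 (chr19:6046512-6046570, plus strand): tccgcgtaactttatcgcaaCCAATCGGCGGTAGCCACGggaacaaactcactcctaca
Pdia6 (chr12:17266471-17266529, plus strand): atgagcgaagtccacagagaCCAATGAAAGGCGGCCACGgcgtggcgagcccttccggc
Calr (chr8:84847055-84847113, minus strand): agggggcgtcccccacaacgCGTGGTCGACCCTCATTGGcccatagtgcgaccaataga
Creld2 (chr15:88819500-88819558, plus strand): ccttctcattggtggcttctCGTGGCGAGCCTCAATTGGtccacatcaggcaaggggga
Herpud1 (chr8:94386357-94386407, plus strand): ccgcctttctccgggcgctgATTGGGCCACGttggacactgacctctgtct
In Calr and Creld2 the element runs on the opposite strand, so it reads backwards here. Canx and Syvn1 were higher and the other 4 lower in PEox, as detailed below with their values. A match of letters describes the window only, and no match was tested for binding.

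Among the sensors, Eif2ak3 and Ern1 rose at low levels while the ATF6 genes did not pass. Eif2ak3, the gene of PERK, which phosphorylates the initiation factor eIF2 alpha, had 23.5, 13.9 and 22.9 CPM in PEox libraries 1 to 3, against 9.24, 9.11 and 8.84 CPM in Vehicle libraries 1 to 3. The Vehicle libraries were nearly equal, PEox library 2 was the lowest of its group, and the groups did not overlap (log2 fold change 1.15 ± 0.21, SE; edgeR adjusted p = 0.00296). Ern1 had 15.5, 20.1 and 28.6 CPM in PEox and 9.89, 12.3 and 12.7 CPM in Vehicle. PEox library 3 was far above library 1 (log2 fold change 0.88 ± 0.23, SE; edgeR adjusted p = 0.0161), and the call was lost without Vehicle library 1 (edgeR adjusted p = 0.0725) or without Vehicle library 2 (edgeR adjusted p = 0.0532). It was also lost when library-specific trends on transcript length and GC were taken out and the median over all genes was set to 0, called the length and GC refit here (log2 fold change 0.59, edgeR adjusted p = 0.0609). Setting that median, called centring here, was added after seeing the data. Without centring Ern1 kept its call (0.73, edgeR adjusted p = 0.0258). Atf6, whose product is cut in the Golgi to free a transcription factor, had 74.5, 59.1 and 73.2 CPM in PEox and 62.5, 63.5 and 66.0 CPM in Vehicle; the groups overlapped and the test was not passed (log2 fold change 0.11 ± 0.10, SE; edgeR adjusted p = 0.456). Its relative Atf6b had 47.0, 54.0 and 56.1 CPM in PEox and 63.4, 56.3 and 56.8 CPM in Vehicle. Its groups did not overlap but the test was not passed (log2 fold change -0.17 ± 0.09, SE; edgeR adjusted p = 0.213). When that refit used the median transcript of a gene in place of the longest, its sign turned, again without passing (0.27, edgeR adjusted p = 0.0777). Without centring, the median transcript version put Atf6b at 0.42, where it passed as higher.

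Xbp1 was the most abundant of the sensor group, at 525, 521 and 546 CPM in PEox and 647, 667 and 624 CPM in Vehicle. It was lower in all 3 PEox libraries (log2 fold change -0.28 ± 0.04, SE; edgeR adjusted p = 0.00107). In the length and GC refit Xbp1 stayed called at -0.21 (edgeR adjusted p = 0.00526). Without centring the call was lost (-0.07, edgeR adjusted p = 0.239). Counts per gene do not separate spliced from unspliced Xbp1 mRNA, so the activity of IRE1 was not measured. Of the plasma and B cell markers given above, 7 of 9 tested were lower in the same libraries, and Prdm1 and Pou2af1 did not pass. Xbp1 is high in plasma cells, and the part of such cells in its change was not tested.

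The soluble folding factors, all known targets of ER stress, split by gene, with 3 lower and 1 higher. Manf, which encodes a secreted ER stress factor that protects neurons, had 163, 177 and 148 CPM in PEox, against 253, 281 and 283 CPM in Vehicle. Every PEox library lay below every Vehicle library (log2 fold change -0.74 ± 0.08, SE; edgeR adjusted p = 0.000163). Sdf2l1, a cofactor of the chaperone BiP, had 89.1, 78.9 and 81.7 CPM in PEox and 117, 110.5 and 110.4 CPM in Vehicle (log2 fold change -0.43 ± 0.07, SE; edgeR adjusted p = 0.00125). Creld2, a disulfide isomerase-like ER protein gene, averaged 204 ± 10.5 CPM in PEox and 237 ± 9.90 CPM in Vehicle (SD, n = 3 each; log2 fold change -0.21, edgeR adjusted p = 0.0185). Its call was lost without PEox library 1 (adjusted p = 0.0627), PEox library 3 (0.050001), Vehicle library 2 (0.083) or Vehicle library 3 (0.0588) in the edgeR test. With library size scaling Creld2 lay at -0.08 and did not pass (edgeR adjusted p = 0.344). In the length and GC refit, Sdf2l1 was at -0.099 (edgeR adjusted p = 0.281) and Creld2 at 0.042 (edgeR adjusted p = 0.663), so neither passed. Without centring, Sdf2l1 was at 0.04 (edgeR adjusted p = 0.679). Creld2 then turned to 0.18 and passed as higher (edgeR adjusted p = 0.0484). Hyou1, the large ER chaperone that exchanges the nucleotide of BiP, went the other way, at 30.7, 27.9 and 24.5 CPM in PEox and 13.1, 15.4 and 15.9 CPM in Vehicle. The groups were far apart relative to their spread (log2 fold change 0.90 ± 0.13, SE; edgeR adjusted p = 0.00106).

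Calreticulin and calnexin bind the same sugar on folding glycoproteins, the one soluble and the other in the membrane, and their genes changed in opposite directions. Calr had 365, 319 and 361 CPM in PEox, against 502, 486 and 520.3 CPM in Vehicle (log2 fold change -0.53 ± 0.06, SE; edgeR adjusted p = 0.000265). Canx had 315, 309 and 338 CPM in PEox, against 251, 217 and 272 CPM in Vehicle (log2 fold change 0.38 ± 0.08, SE; edgeR adjusted p = 0.00719). In the length and GC refit the call of Canx was lost (0.17, edgeR adjusted p = 0.138) and that of Calr was kept (-0.48, edgeR adjusted p = 0.000668). Neither gene's groups overlapped, and both promoters hold the ERSE printed above.

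Disulfide isomerases and their oxidases gave 2 higher, 2 lower and 2 that did not pass. Pdia3, which works with calnexin and calreticulin, had 1179.5, 1275 and 1376 CPM in PEox and 1628, 1662 and 1527 CPM in Vehicle (log2 fold change -0.33 ± 0.06, SE; edgeR adjusted p = 0.00311). Pdia6, an isomerase that also tempers IRE1 signalling, had 412, 426 and 452 CPM in PEox and 556, 539 and 559 CPM in Vehicle (log2 fold change -0.36 ± 0.05, SE; edgeR adjusted p = 0.000501). All PEox libraries were below all Vehicle libraries for both genes. Ero1l, the oxidase that recharges disulfide isomerases, had 219, 257 and 236 CPM in PEox and 171, 176 and 180.2 CPM in Vehicle, without overlap (log2 fold change 0.43 ± 0.07, SE; edgeR adjusted p = 0.00113), and was at 0.22 in the length and GC refit (edgeR adjusted p = 0.0369). P4hb, protein disulfide isomerase itself, averaged 363 ± 6.60 CPM in PEox and 308 ± 26.3 CPM in Vehicle (SD, n = 3 each; log2 fold change 0.24, edgeR adjusted p = 0.0197). That call was lost without PEox library 1 (edgeR adjusted p = 0.062), PEox library 2 (0.0597), Vehicle library 1 (0.0636) or Vehicle library 3 (0.0547), and in the length and GC refit (0.0719). Pdia4 averaged 217 CPM in PEox and 228 CPM in Vehicle (edgeR adjusted p = 0.491). The second oxidase gene, Ero1lb, averaged 18.2 CPM in PEox and 17.3 CPM in Vehicle (edgeR adjusted p = 0.769), and the groups of both genes overlapped. Of the counts of the 4 isomerase genes, P4hb held 15.9% ± 1.06 in PEox and 11.4% ± 0.629 in Vehicle (SD, n = 3 each), and Pdia3 held 55.8% ± 1.56 in PEox and 59.6% ± 0.497 in Vehicle.

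Lectins and mannosidases that pick misfolded glycoproteins for degradation gave 1 gene higher, 1 lower and 2 that did not pass. Os9, a lectin of the degradation complex, had 235, 247 and 236 CPM in PEox and 292, 267 and 274 CPM in Vehicle (log2 fold change -0.22 ± 0.05, SE; edgeR adjusted p = 0.0108). Its call was lost with library size scaling (log2 fold change -0.08, edgeR adjusted p = 0.257). Edem1, a mannose-trimming factor induced by XBP1, had 205, 231 and 236 CPM in PEox and 197, 199 and 164 CPM in Vehicle. PEox library 1 lay just above the highest Vehicle library (log2 fold change 0.27 ± 0.09, SE; edgeR adjusted p = 0.0449). Edem1 lost its call without any 1 of PEox libraries 2 and 3 and Vehicle libraries 1 to 3, at edgeR adjusted p = 0.127, 0.128, 0.0638, 0.0606 and 0.118 in that order, and in the length and GC refit (0.839), with no low count filter (0.0939) and with replicate blocks (0.0732). Edem3 had 17.6, 12.8 and 6.82 CPM in PEox and 9, 7.90 and 10.8 CPM in Vehicle, so the PEox libraries spread more widely than the groups differed (edgeR adjusted p = 0.355). Without PEox library 3 its log2 fold change was 0.72 and passed (edgeR adjusted p = 0.0342). Edem2 averaged 119 CPM in PEox and 113 CPM in Vehicle and did not pass (edgeR adjusted p = 0.538).

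The membrane ligase that marks misfolded proteins with ubiquitin rose with its partner. Syvn1, the ligase HRD1, had 48.0, 43.8 and 51.3 CPM in PEox and 34.1, 30.3 and 33.96 CPM in Vehicle (log2 fold change 0.54 ± 0.10, SE; edgeR adjusted p = 0.00281). Sel1l, the adaptor that stabilises HRD1, had 149.9, 172 and 210.3 CPM in PEox and 113, 118 and 122 CPM in Vehicle (log2 fold change 0.59 ± 0.11, SE; edgeR adjusted p = 0.00401). In the length and GC refit Sel1l was at 0.35 (edgeR adjusted p = 0.0251). For both genes the lowest PEox library exceeded the highest Vehicle library. Herpud1, which brings components of the complex together, was lower, at 216, 205 and 219 CPM in PEox and 291, 266 and 253 CPM in Vehicle (log2 fold change -0.34 ± 0.06, SE; edgeR adjusted p = 0.00296). The Derlins, membrane proteins of the exit channel, did not pass. Derl1 averaged 198 CPM in PEox and 177 CPM in Vehicle (edgeR adjusted p = 0.0584), and Derl2 105 CPM in PEox and 101 CPM in Vehicle (edgeR adjusted p = 0.663). Derl1 passed with RLE scaling (edgeR adjusted p = 0.0486), DESeq2 (adjusted p = 0.0212) and library size scaling (edgeR adjusted p = 0.00464). Derl3, a Derlin induced by ER stress, had 6.90, 7.29 and 5.34 CPM in PEox and 3.76, 5.15 and 4.13 CPM in Vehicle; the groups did not overlap, but the test was not passed (edgeR adjusted p = 0.0761). It passed with library size scaling (edgeR adjusted p = 0.0334), in the length and GC refit (0.0195) and without PEox library 3 (0.0453).

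The translocon split by subunit, with 2 genes higher and 2 lower. Sec61b, a small subunit of the channel, had 106, 99.98 and 91.3 CPM in PEox, against 185, 198 and 196 CPM in Vehicle (log2 fold change -0.96 ± 0.07, SE; edgeR adjusted p = 2.28e-05), and was at -0.45 in the length and GC refit (edgeR adjusted p = 0.000651). Without centring Sec61b was at -0.31 (edgeR adjusted p = 0.00409). Sec61g, the other small subunit, had 36.8, 43.6 and 35.03 CPM in PEox and 62.6, 59.2 and 62.2 CPM in Vehicle (log2 fold change -0.67 ± 0.10, SE; edgeR adjusted p = 0.000992). In both, every PEox library was below every Vehicle library. The pore-forming subunit went up: Sec61a1 had 304, 297 and 347 CPM in PEox and 213, 215 and 213 CPM in Vehicle (log2 fold change 0.56 ± 0.06, SE; edgeR adjusted p = 0.000252). Sec63, which couples BiP to the channel, averaged 85.4 ± 5.20 CPM in PEox and 60.3 ± 2.87 CPM in Vehicle (SD, n = 3 each; log2 fold change 0.50, edgeR adjusted p = 0.001) and was at 0.27 in the length and GC refit (edgeR adjusted p = 0.0145). All 4 kept their calls in every alternative run.

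TRAP, the complex beside the channel that helps many signal peptides to insert, also split, with 2 genes higher and 2 lower. Ssr3 had 207, 206 and 207 CPM in PEox and 118, 138 and 139 CPM in Vehicle (log2 fold change 0.65 ± 0.07, SE; edgeR adjusted p = 0.000208). Ssr4 had 131, 131 and 141 CPM in PEox and 223, 221 and 238 CPM in Vehicle (log2 fold change -0.76 ± 0.06, SE; edgeR adjusted p = 2.7e-05). Ssr2 had 211, 209 and 192 CPM in PEox and 257, 268 and 281 CPM in Vehicle (log2 fold change -0.40 ± 0.06, SE; edgeR adjusted p = 0.000966). None of these 3 genes had overlapping groups. Ssr1 averaged 153 ± 6.85 CPM in PEox and 129 ± 8.37 CPM in Vehicle (SD, n = 3 each; log2 fold change 0.25, edgeR adjusted p = 0.0193), a call lost without PEox library 1 (edgeR adjusted p = 0.0635), PEox library 2 (0.0575), Vehicle library 1 (0.0796) or Vehicle library 2 (0.0834). In the length and GC refit, Ssr1 was at -0.018 (edgeR adjusted p = 0.892) and Ssr2 at -0.088 (0.221), without passing, whereas Ssr3 at 0.53 (0.000399) and Ssr4 at -0.32 (0.00602) stayed called. Without centring Ssr4 lost its call (-0.18, edgeR adjusted p = 0.064).

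Shares of counts within a complex do not depend on how libraries are scaled. Sec61a1 held 68.0%, 67.4% and 73.3% of the counts of the 3 Sec61 genes in PEox libraries 1 to 3, against 46.2%, 45.6% and 45.1% in Vehicle libraries 1 to 3. Sec61b held 21.9% ± 2.32 in PEox and 41.2% ± 0.910 in Vehicle (SD, n = 3 each). Within TRAP, Ssr3 held 29.6% ± 0.565 in PEox and 17.4% ± 1.03 in Vehicle, and Ssr4 held 19.2% ± 1.13 in PEox and 30.1% ± 0.821 in Vehicle (SD, n = 3 each). All 7 shares of these complexes separated the groups without overlap (exact permutation test, two-sided p = 0.1 for each, the smallest p that 3 against 3 libraries allow). The shares of Pdia3, Pdia4, Pdia6 and P4hb among the 4 isomerase genes also did not overlap (exact permutation test, two-sided p = 0.1 for each). By CPM, the groups did not overlap for 50.6% of all genes tested. Shares of the Derlin, ERO1 and ATF6 genes overlapped between the groups. Of the EDEM genes only the share of Edem2 did not, at 33.4% ± 0.982 in PEox and 36.6% ± 1.68 in Vehicle (SD, n = 3 each).

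**Figure D2:**
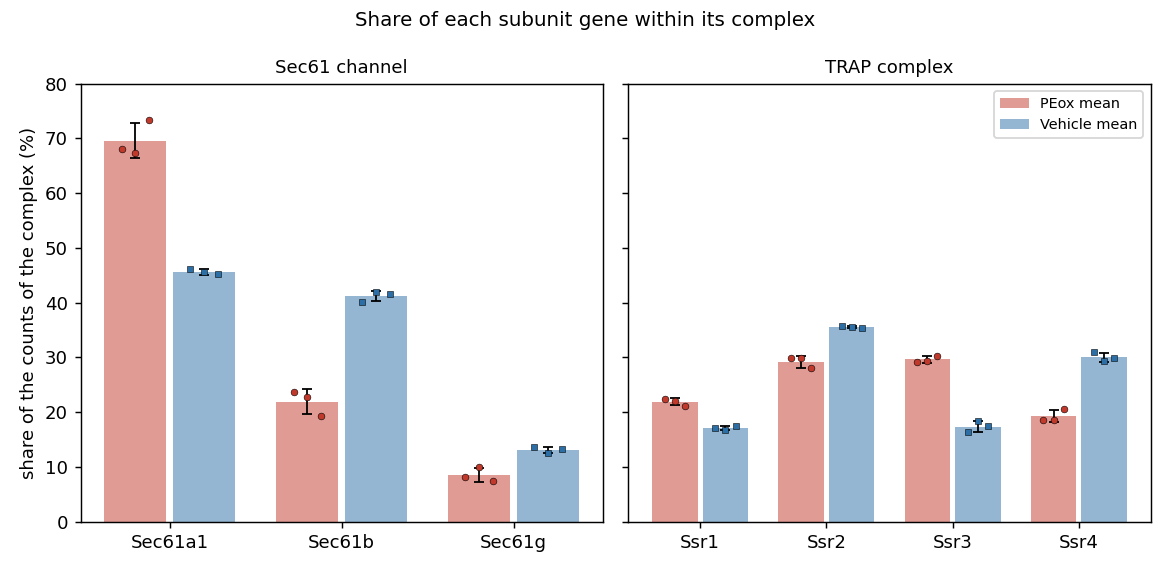
Bars give the mean share of each subunit gene in the counts of its complex in percent, with SD as error bars and libraries as points, PEox left of Vehicle. Sec61a1 and Ssr3 take larger shares in PEox (69.6% and 29.6%) than in Vehicle (45.7% and 17.4%), and Sec61b and Ssr4 smaller ones.

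The direction of a gene went with the length of its longest coding transcript. The 18230 tested genes with a known length were put in 4 bins of nearly equal size. In the shortest bin 3.07% of all genes were higher and 30.6% lower in PEox, and in the longest 31.4% were higher and 9.13% lower, with median log2 fold changes of -0.42 and 0.27. In the second shortest bin 10.4% of all genes were higher and 23.4% lower, and in the second longest 28.3% were higher and 12.2% lower. Of the ER genes, 15 fell in the 2 bins of shorter transcripts, where 0 were higher, 11 were lower and 4 did not pass. In the 2 bins of longer transcripts were 20, of which 13 were higher, 2 (Pdia3 and Os9) were lower and 5 did not pass. Sec61b has a transcript of 564 bases and Ssr4 one of 800 bases, against 3172 bases for Sec61a1 and 2957 bases for Ssr3. The longest annotated transcript need not be the one these cells use. The part of length in the split was not tested beyond the refit that follows.

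**Figure D3:**
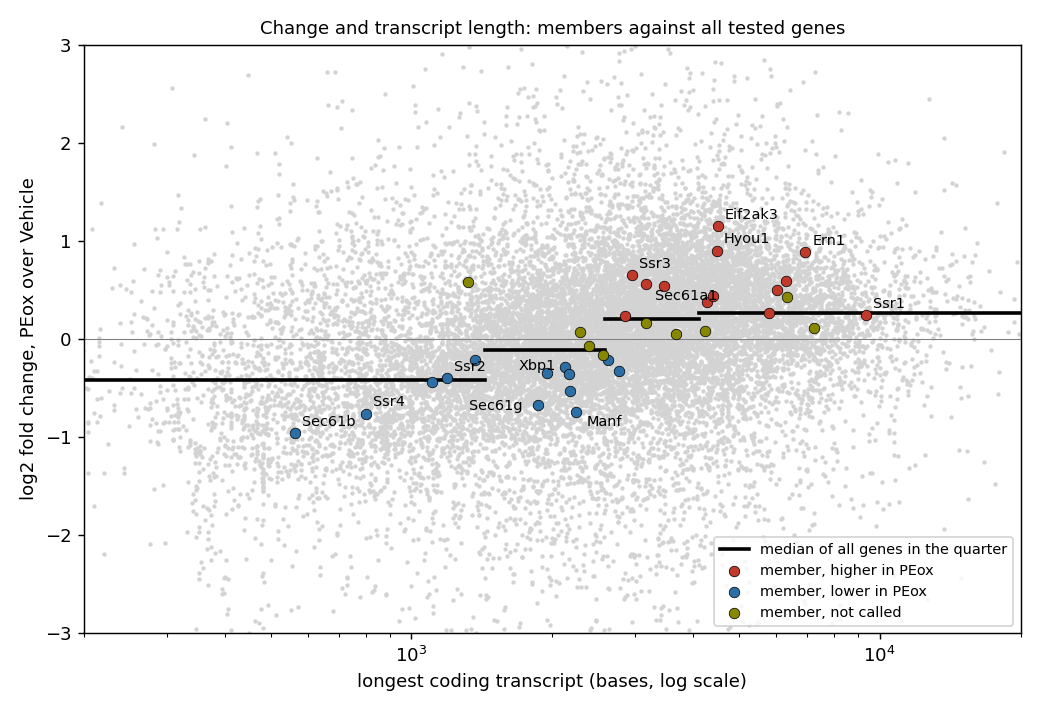
Each point is a gene, with the length of its longest coding transcript on a log axis in bases and the log2 fold change of PEox over Vehicle; grey points are all tested genes within the axis limits (those beyond are not drawn), coloured points the 35 ER genes and black bars the median of all genes in each length bin. Blue points, called lower, lie left of most red points, called higher.

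The length and GC refit gave 9 ER genes higher and 10 lower. Without the centring, which was added after seeing the data, it gave 15 higher and 6 lower, with the median of all genes at 0.14. Of the 26 genes called without taking out length and GC trends, 18 were also called in the centred refit, in the same direction. Without the centring 18 were shared too, but Creld2 was then called in the opposite direction. Across 17 alternatives in all, 12 genes kept their direction and their call. Higher in PEox in each of them were 8 genes, namely Eif2ak3, Hyou1, Ero1l, Syvn1, Sel1l, Sec61a1, Sec63 and Ssr3. Lower in each were 4 genes, namely Manf, Calr, Sec61b and Sec61g.

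**Figure D4:**
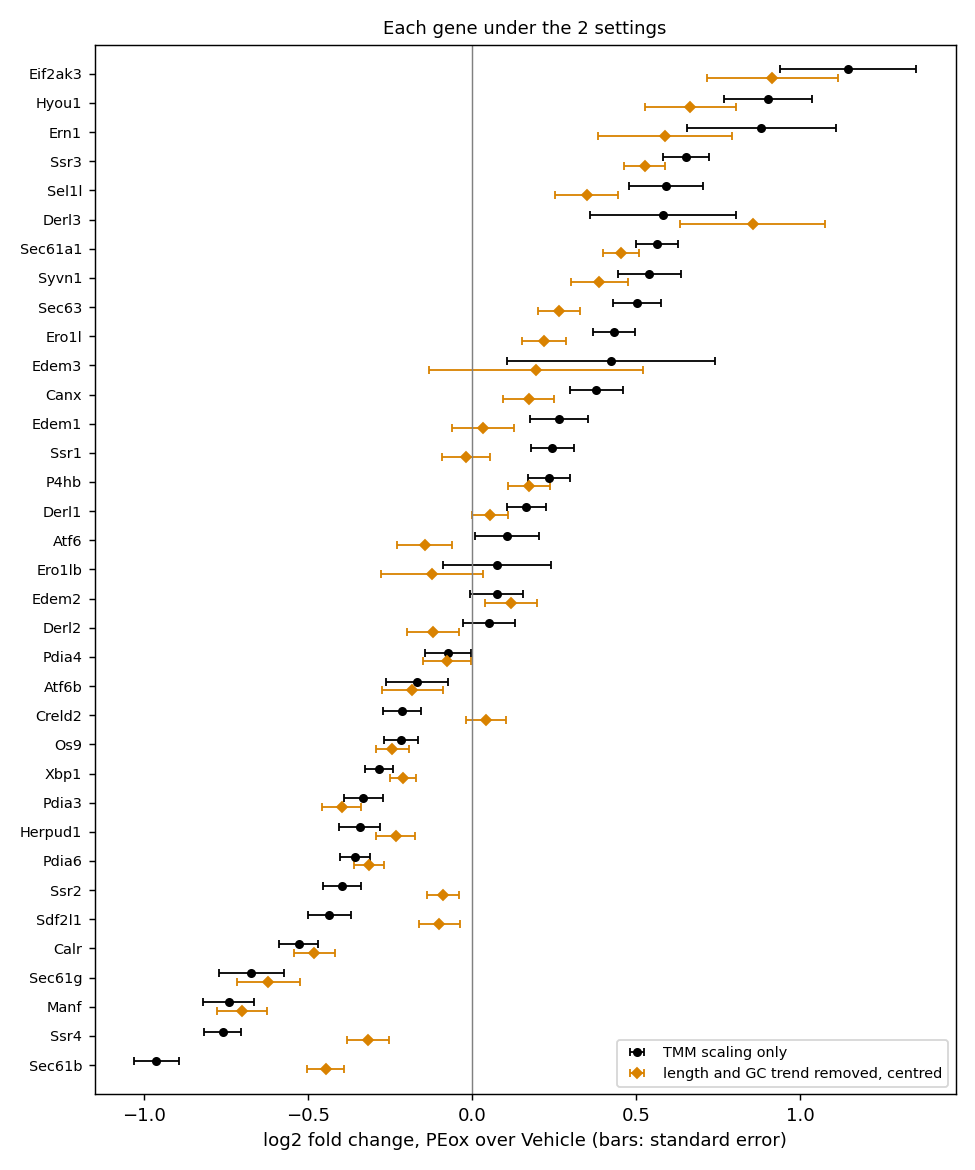
Log2 fold changes of PEox over Vehicle with standard errors are drawn for each gene, as circles for the fit with TMM scaling only and as diamonds in the length and GC refit, centred on the median of all genes. Most diamonds lie nearer to 0 than their circles, as for Sec61b (-0.96 and -0.45), and Creld2 moves to just above 0.

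Levels between genes were compared as RPKM, CPM per kilobase of that transcript. Pdia3 was the highest at 461 RPKM in PEox and 580 RPKM in Vehicle, the order after it being set by Vehicle. Sec61b stood at 176 RPKM in PEox and 342 RPKM in Vehicle, Xbp1 at 249 RPKM in PEox and 303 RPKM in Vehicle, and Ssr4 at 168 RPKM in PEox and 284 RPKM in Vehicle. Sensors stood at the other end: Ern1 at 3.08 RPKM in PEox and 1.67 RPKM in Vehicle, and Eif2ak3 at 4.45 RPKM in PEox and 2.01 RPKM in Vehicle. The 10 genes with the highest Vehicle RPKM were all lower in PEox (ordered by PEox RPKM instead, 9 of the first 10 were lower and P4hb was higher), and of the 21 lowest 12 were higher, 1 (Sec61g) was lower and 8 did not pass. RPKM divides by transcript length, so the part of level and that of length in this order cannot be told apart here.

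Of 105 further ER genes, all tested, 35 were higher, 33 lower and 37 did not pass (median log2 fold change 0.06). For these counts and those of the lists within them below, 18.3% of all genes tested were higher and 18.8% lower. Among genes with at least 5 CPM in 3 libraries, 60.6% were called in either direction. The length and GC refit was not read out for these further genes, so the part of length in their counts was not tested. Among 29 other folding genes 12 were higher and 7 lower. The central ER chaperones moved up slightly, Hspa5 (BiP) to 1371 ± 25.1 CPM in PEox, against 1140 ± 118 CPM in Vehicle (SD, n = 3 each; log2 fold change 0.27, edgeR adjusted p = 0.0163), and Hsp90b1 to 864 ± 18.9 CPM in PEox, against 701 ± 28.6 CPM in Vehicle (log2 fold change 0.30, edgeR adjusted p = 0.000799). Dnajb9, a BiP cofactor that restrains IRE1, rose by 0.85 and Tmx3, a membrane disulfide isomerase gene, by 0.91, while Fkbp2, a small prolyl isomerase gene, fell by 0.80 (edgeR adjusted p = 0.000211, 0.000308 and 0.000205).

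Of 25 other degradation genes 13 were higher and 3 lower (median log2 fold change 0.33). The higher ones had transcripts from 2906 bases (Rnf185) to 9477 bases (Dnajb14), all in the 2 bins of longer transcripts. In those bins 28.3% and 31.4% of all genes were higher. Vcp, the ATPase that pulls proteins out of the membrane, had 739 ± 8.18 CPM in PEox and 459.7 ± 37.6 CPM in Vehicle (SD, n = 3 each; log2 fold change 0.68, edgeR adjusted p = 6.78e-05). Ubxn4, which anchors VCP at the ER, also rose (log2 fold change 0.46, edgeR adjusted p = 0.000142).

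Translocation and signal peptide genes gave 6 higher and 12 lower of 26, and the oligosaccharyltransferase, which attaches sugar chains, 1 higher and 7 lower of 12. Sec11c and Spcs2, of the signal peptidase, fell by 0.66 and by 0.47, whereas Tram1, a channel-associated membrane protein gene, rose by 0.74. Krtcap2 and Dad1, small subunits of the oligosaccharyltransferase, fell by 1.11 and by 0.68, and its catalytic subunit gene Stt3a rose by 0.51. These values passed the edgeR test, the largest adjusted p being 0.000276 (Stt3a). Their longest coding transcripts were 860 bases for Sec11c, 2909 for Spcs2 and 1172 for Krtcap2. Those of Dad1, Tram1 and Stt3a were 3491, 2938 and 5867 bases. In the shortest bin of all genes 3.07% were higher and 30.6% lower, and the part of length in these lists was not tested.

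Downstream of PERK the genes went both ways, with 3 of 13 higher and 4 lower. Atf4 had 225 ± 19.5 CPM in PEox and 272 ± 22.3 CPM in Vehicle (SD, n = 3 each; log2 fold change -0.27, edgeR adjusted p = 0.0306), and Ddit3, the gene of CHOP, had 63.1 ± 3.92 CPM in PEox and 82.1 ± 3.11 CPM in Vehicle (log2 fold change -0.38, edgeR adjusted p = 0.00387). Ppp1r15a, which encodes the feedback phosphatase subunit GADD34, rose by 0.84 on the log2 scale, Eif2s1, the gene of eIF2 alpha, fell by 0.66 and Nupr1, a stress-inducible gene, fell by 0.95.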

How the data were processed

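The deposited table held un-normalized read counts for each gene, in 1 column per library matched by title. Per the labels' protocols, paired reads were cleaned with fastp and aligned with HISAT2 2.0.5; edgeR 3.22.5 appears in the submitters' processing notes. The counter, genome build, annotation and strandedness are not given in the sources used here, and overlapping and antisense genes are therefore uncertain. Genes were named through a reference table of gene symbols (55141 of 55401 identifiers).

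Counts were filtered by filterByExpr, scaled by TMM (CPM use these factors, 0.951 to 1.05) and tested by edgeR 4.0.16 (robust quasi-likelihood, group as single term) in R 4.3.3, with adjustment over all genes tested. Standard errors are the log2 fold change over the root of F. Lengths and GC content came from the longest coding GENCODE M21 transcript, and each library's trend on them was removed by loess (span 0.5), with and without setting the median log2 fold change of all genes to 0. Alternatives also used DESeq2 1.42.0 and limma-voom (limma 3.58.1), other scalings and filters, replicate blocks and leaving out each library. The procedure was tested on simulated data with a smaller common spread between libraries than these data had. That test checks the working of the steps and does not measure the error rate of these calls. Within each group all libraries differed beyond sampling noise (chi-square per gene at least 15.6). Per-library values are given for all sensors and, in each other group, up to 3 genes with the smallest p-values; of the further ER lists, up to 3 genes with the smallest p-values and 4 fixed ones are named, except 1 gene that is not reported here. Genes and lists were chosen with earlier results of these data known. Protein motifs were planned but not searched.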

Additional observations from a re-analysis of the deposited data

How the results depend on the processing

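Counts of ER genes called stayed within 1.5 times the reported 13 higher and 13 lower under RLE scaling, library size scaling, both other filters, DESeq2 and limma-voom. Library size scaling moved the median log2 fold change of the 35 genes to 0.21 and that of all genes to 0.14, and turned Pdia4 (0.0643). Taking out length and GC trends without centring also moved all genes, to 0.14, or to 0.16 with the median transcript (chosen after seeing the data). Turned signs there were Pdia4 (0.0637), Atf6 (-0.00385), Creld2 (0.18), Sdf2l1 (0.0407) and Ssr2 (0.0518), and with the median transcript Atf6b (0.42), Pdia4 (0.0756) and Ssr2 (0.0329), where the ER genes' median was 0.24. Of these turned values, those of Pdia4, Atf6, Sdf2l1 and Ssr2 lay below the median of all genes. Creld2, lower in the main fit, passed as higher with the longest transcript (edgeR adjusted p = 0.0484). Atf6b, not called in the main fit, passed as higher with the median transcript. In either fit 6 genes were lower, with 15 and 18 higher. After centring, a step also chosen after seeing the data, 9 were higher and 10 lower with a median of -0.0179, and signs turned for Atf6 (-0.14), Creld2 (0.0424), Ero1lb (-0.12), Derl2 (-0.12) and Ssr1 (-0.0179). With the median transcript and centring, 13 were higher and 12 lower, and Atf6 (-0.15), Atf6b (0.27) and Ero1lb (-0.10) turned. Calls lost without centring and kept with it were those of Xbp1, Os9, Herpud1 and Ssr4, and with the median transcript those of Xbp1, Creld2, Pdia3, Pdia6, Os9 and Herpud1. Edem2 and Derl1 passed in both fits without centring and in neither with it. Derl2 passed with the median transcript without centring (edgeR adjusted p = 0.0432), and not after it (0.495). Leaving out each library in turn gave 9 to 14 genes higher and 12 to 13 lower, with Ero1lb between -0.0516 and 0.19 and Derl2 between -0.00558 and 0.11. Replicate numbers did not pair the libraries: deviations of same-numbered libraries correlated at 0.005, 0.014 and -0.006. With the replicate block, 12 genes were higher and 13 lower, Edem1 being the call lost. At this depth 3 counts are worth 0.0449 to 0.0533 CPM, below every ER gene described.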
